A study of Mus musculus with 4 samples.

Results

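The motile cilia genes are a group of 40 mouse genes for building, powering and regulating beating cilia, taken by their symbols and found on the arrays through the transcript accession of each non-control probe. Probes for 37 of the 40 genes were matched, 60 probes in all, among 45604 genes measured by 56605 probes. *Ccdc40*, *Ccdc114* and *Armc4* had no matched probe and are not analysed here. Of the 37 genes, 20 were measured by 1 probe and 17 by several, 36 were well above the local background on all 4 arrays, and 34 had a mean expression level of at least 100. An expression level here is the normalized spot intensity on the linear scale, and it cannot be compared between genes, because probes differ in brightness.

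RNA of septal nasal mucosa from C57BL/6J mice was hybridized to 4 one-color Agilent arrays, 2 from young adult mice (8 weeks) and 2 from aged mice (16 months), each with RNA pooled from 5 mice. The mice are given as male animals of one inbred strain, with no treatment or transgene named, and the question was what differs with age. The labels name the tissue olfactory epithelium, whereas their protocol gives septal nasal mucosa as the tissue collected. A label text on silica aspiration and lung cells does not match the titles and was not used. Separate pools would need more mice than the study counted for its gene analyses, and no source used here says whether pools share mice, so the P-values measure the spread between 2 pools of an age. *Xist*, the RNA that coats the inactive X chromosome, was above background on all 4 arrays with expression levels between 612 and 645, and of 7 Y-linked genes 6 were above background on none and the other on 1 array, which goes against mice that are all male, at both ages alike.

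A motile cilium beats because dynein motors, fixed in rows of outer and inner arms to the doublet microtubules of the axoneme, slide neighbouring doublets against each other. Radial spokes, the central pair of microtubules and nexin links control the sliding, and the whole structure grows from basal bodies that multiciliated cells make in large numbers under a program led by multicilin (*Mcidas*), cyclin O (*Ccno*), *Foxj1* and RFX factors. In the nose such cilia belong to multiciliated cells of the respiratory epithelium, which move mucus, whereas the cilia of olfactory receptor neurons (ORNs) carry odorant receptors and in mammals are regarded as immotile.

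RFX factors bind the X-box, a paired DNA element found in front of many cilium genes, so the RefSeq promoter windows (GRCm38.p6, 250 bases before to 50 after the gene start) were searched for it. The table held 40 windows for 34 of the 40 genes. The full X-box, searched on both strands as GTNNCC followed by NN and GGNAAC (N being any base), matched 4 of the 40 windows (10%) against 1.29% of all 32851 windows of the same length. The 4 matches are shown in 30 bases of the gene's own strand, with the match in capitals. They are the only full X-boxes found in the promoter windows of the motile cilia genes searched.
Pifo: gcggttccGTTCCCTTGGCAACgtagtaca
Zmynd10: gctccctcGTTTCCATGGCGACgacgactc
Ccno: gggctgcgGTTGCCACGGTGACgacagacg
Tekt4: ccccacctGTGTCCTGGGAAACaaactcat
The *Pifo* window lies at chr3:106001496-106001525 on the minus strand, with the match from base -20 to base -7 counted from the gene start, and the match reads on both strands. The *Zmynd10* window lies at chr9:107547296-107547325 on the plus strand and its match covers bases 1 to 14. The *Ccno* window (chr13:112987575-112987604, plus strand) holds its match from base -219 to base -206, and the *Tekt4* window (chr17:25471422-25471451, plus strand) from base -160 to base -147. The matches of *Zmynd10* and *Ccno* are on the strand opposite to the gene, so their capitals show the reverse complement of the searched letters.

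The half-site GTTGCC, part of many X-boxes, matched 18 of the 40 promoter windows (45%), of 17 genes, against 12.5% of all windows. Each of the 4 genes with a full X-box had it, but not within the 30 bases shown for *Zmynd10* and *Tekt4*. The forkhead element GTAAACA, bound by the family of *Foxj1*, matched 2 windows (5%), those of *Cfap43* and *Ak7*, against 3.65% of all. None of the 6 dynein heavy chain genes had a full X-box or a half-site in these windows. With age, the 17 genes with a half-site had a median of -0.06 on the log2 scale (10 lower), and the 15 measured genes without one had a median of -0.12 (11 lower). The first median includes *Spag6*, which was not measured above background.

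Few of the motile cilia genes passed the criteria of the study, and the number changed with the set of genes tested, as given below. With limma over all 45604 genes and the criteria of the study (P below 0.05 and FDR below 0.25), 1 of the 37 genes was called lower in aged mice, *Dnah2* (2.70% of the genes, against 2.33% of all genes tested), and none was called higher (against 1.65% of all genes). In either direction 3.98% of all genes were called. No gene of the group was a DEG, which needed in addition a mean expression level of at least 100 and a fold change of at least 1.5 (1.96% of all genes). At P below 0.05 without the FDR, 7 were lower (7.08% of all genes were) and 1 was higher (6.05%). The median log2 fold change was -0.11 over the 37 genes, against 0.01 over all genes tested. Without young adult array 1 it was -0.05, and with each other array left out it stayed between -0.12 and -0.11. The log2 fold change was negative for 25 genes and positive for 12, one of these being *Spag6*, which was not measured above background. The size of the difference was under 0.2 on the log2 scale for 24 genes and under 0.5 for all 37. Its median was 0.14, against 0.17 over all genes tested and 0.13 over those with a mean expression level of at least 100.

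The precision was limited by 2 arrays for each age. The standard error of a gene's log2 fold change averaged 0.11 over the group, and the 95% interval lay within a 1.5-fold change in either direction for 28 genes and within a 2-fold change for 36. The 2 arrays of each age correlated across genes at r = 0.987 in both ages, and arrays of different ages at 0.982 to 0.989. An exact permutation test of 2 arrays against 2 cannot go below P = 0.333, so none is given. In RNA of a whole tissue, fewer ciliated cells and less RNA per ciliated cell cannot be told apart.

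**Figure D1:**
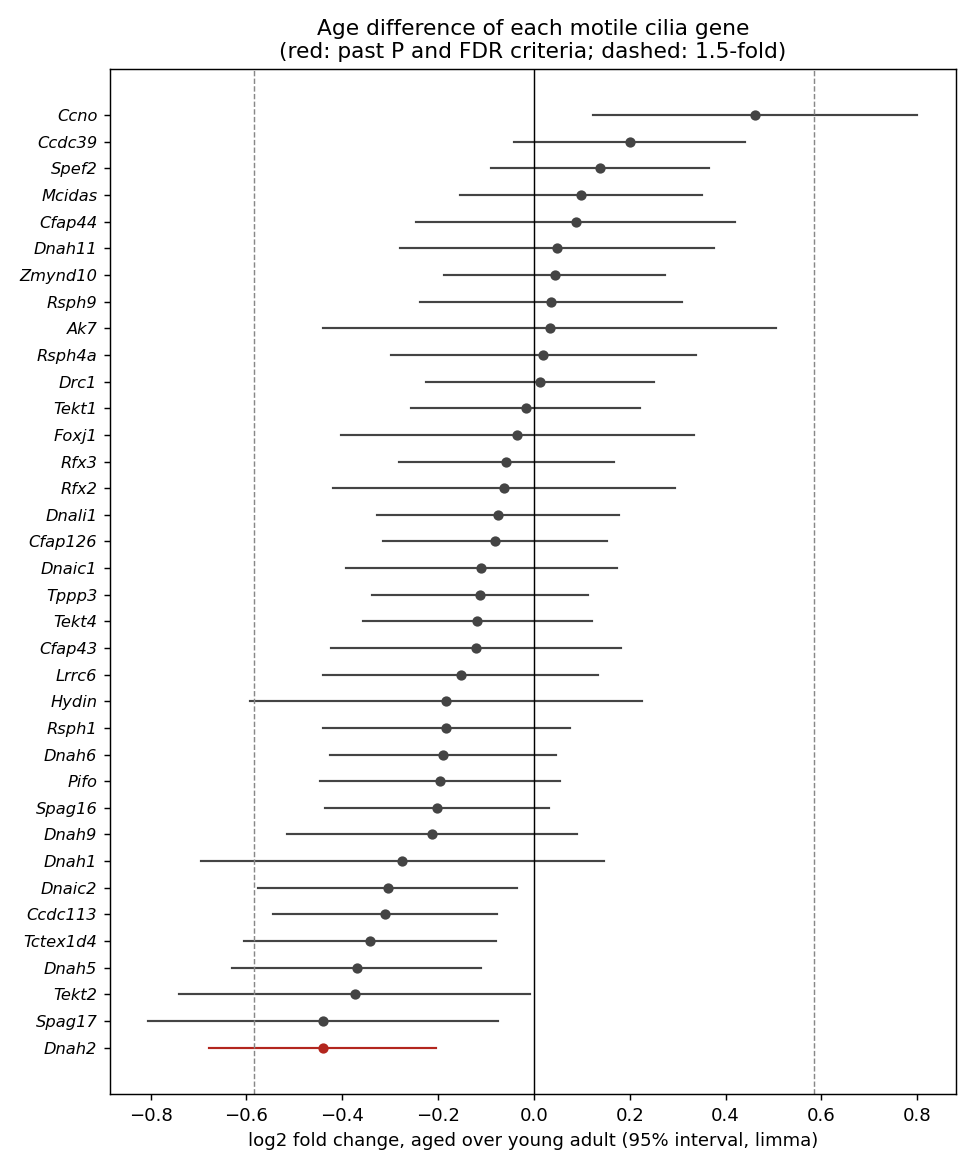
Log2 fold change (x axis, aged over young adult) of 36 motile cilia genes (y axis, ordered by the value), with its 95% interval; dashed lines mark a 1.5-fold change, and *Spag6* is left out because it was not above background. Most dynein genes lie left of 0, *Dnah2* is the only gene past the P and FDR criteria (red), and *Ccno* lies farthest to the right.

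The 5 regulators of the multiciliated program had a median log2 fold change of -0.03, and 3 of them were lower in aged mice. *Foxj1*, the master regulator of motile ciliogenesis, had expression levels of 7187 and 6821 in young adult mice and 7447 and 6276 in aged mice. The lowest and the highest of the 4 values were both from aged mice, and the log2 fold change was -0.03 (95% interval -0.40 to 0.33, FDR 0.924). *Rfx3*, an RFX factor of ciliated cells, had levels of 1448 and 1438 in young adult mice and 1369 and 1405 in aged mice. The ages did not overlap, but the log2 fold change was only -0.06 (-0.28 to 0.17, FDR 0.781). *Rfx2*, a close relative, had levels of 214 and 184 in young adult mice and 183 and 197 in aged mice, which overlapped (log2 fold change -0.06, FDR 0.853).

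The 2 genes that act upstream of basal body amplification had positive values. *Mcidas* had levels of 1788 and 1916 in young adult mice and 2010 and 1955 in aged mice (log2 fold change 0.10, 95% interval -0.15 to 0.35, FDR 0.673). Its 2 probes were at 0.16 (mean level 54961) and 0.03 (mean level 66.9). The second was dim, above background on only 1 array of each age. The levels given for *Mcidas* average both probes on the log scale, and neither probe was near them. Without dim probes its log2 fold change was 0.16. *Ccno*, needed for the mass production of centrioles, had levels of 1024 and 880 in young adult mice and 1284 and 1330 in aged mice. Both aged values of *Ccno* exceeded both young adult values, and the means were 952 ± 102 and 1307 ± 32.5 (SD, n = 2). Its fold change of 1.38 (log2 0.46 ± 0.11, SE, 95% interval 0.12 to 0.80) was the highest among the genes measured above background, and missed the FDR criterion (FDR 0.297). *Ccno* is also the gene whose X-box lies farthest from the gene start.

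The dynein heavy chains, the motors themselves, had a median log2 fold change of -0.24, and 5 of 6 were lower in aged mice. *Dnah2*, an inner arm heavy chain, had levels of 3997 and 4145 in young adult mice and 2940 and 3059 in aged mice. Its level fell to 0.737 of the young adult value (log2 fold change -0.44 ± 0.08, SE, 95% interval -0.68 to -0.20, FDR 0.242), from 4071 ± 105 to 3000 ± 84.5 (SD, n = 2). The call was close to the threshold, and *Dnah2* was called under 10 of 18 alternatives. The call was lost with scaling to the 75th percentile in place of quantile normalization (FDR 0.276, log2 fold change -0.42). With any 1 of the 4 arrays left out, which leaves 1 array for an age, the log2 fold change was -0.47 to -0.41.

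*Dnah5*, an outer arm heavy chain whose loss causes primary ciliary dyskinesia, had levels of 5890 and 6004 in young adult mice and 4419 and 4792 in aged mice. The ages were well apart (log2 fold change -0.37, 95% interval -0.63 to -0.11), and the FDR was 0.290. *Dnah9*, the other outer arm heavy chain of the distal axoneme, had levels of 599 and 593 in young adult mice and 483 and 547 in aged mice (log2 fold change -0.21, FDR 0.497). For *Dnah9*, averaged over 2 probes, the difference between the 2 aged arrays was nearly as large as the distance between the ages. The brighter probe (mean level 5445) was at -0.28 (SE 0.08). The dim one (mean level 56.9) was at -0.15 (SE 0.17) and above background on only 1 of the 2 aged arrays. *Dnah6* (log2 fold change -0.19, FDR 0.449) and *Dnah1* (-0.27, FDR 0.523), both of the inner arms, had no overlap between the ages either, but *Dnah1* had a mean level under 100 and only 1 of its 2 probes was above background on all arrays. The value of *Dnah1* was -0.12 without aged array 1 and -0.43 without aged array 2. *Dnah11*, an outer arm heavy chain of the proximal axoneme, was the exception, with levels of 2332 and 2661 in young adult mice and 2495 and 2660 in aged mice. Its log2 fold change was 0.05 (-0.28 to 0.38). Summed over the 6 heavy chains, the level was 13797 to 14342 in young adult and 11159 to 11911 in aged mice, without overlap, a sum in which *Dnah5* and *Dnah2* weigh most.

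All 4 intermediate and light chains had lower means in aged mice, with a median log2 fold change of -0.21. *Dnaic2*, an intermediate chain of the outer arm, had levels of 593 and 615 in young adult mice and 468 and 511 in aged mice. Its log2 fold change was -0.31 (-0.58 to -0.03, FDR 0.344), the mean of 2 probes at -0.47 and -0.15. *Tctex1d4*, of the Tctex1 family of dynein light chains, had levels of 2964 and 3235 in young adult mice and 2444 and 2441 in aged mice. The 2 aged values nearly coincided, and the log2 fold change was -0.34 (-0.61 to -0.08, FDR 0.309). *Dnaic1* (-0.11, FDR 0.676) and *Dnali1* (-0.08, FDR 0.746) had smaller differences, with no overlap between the ages in either. *Lrrc6* and *Zmynd10*, which assemble dynein arms in the cytoplasm before they enter the cilium, had log2 fold changes of -0.15 and 0.04.

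**Figure D2:**
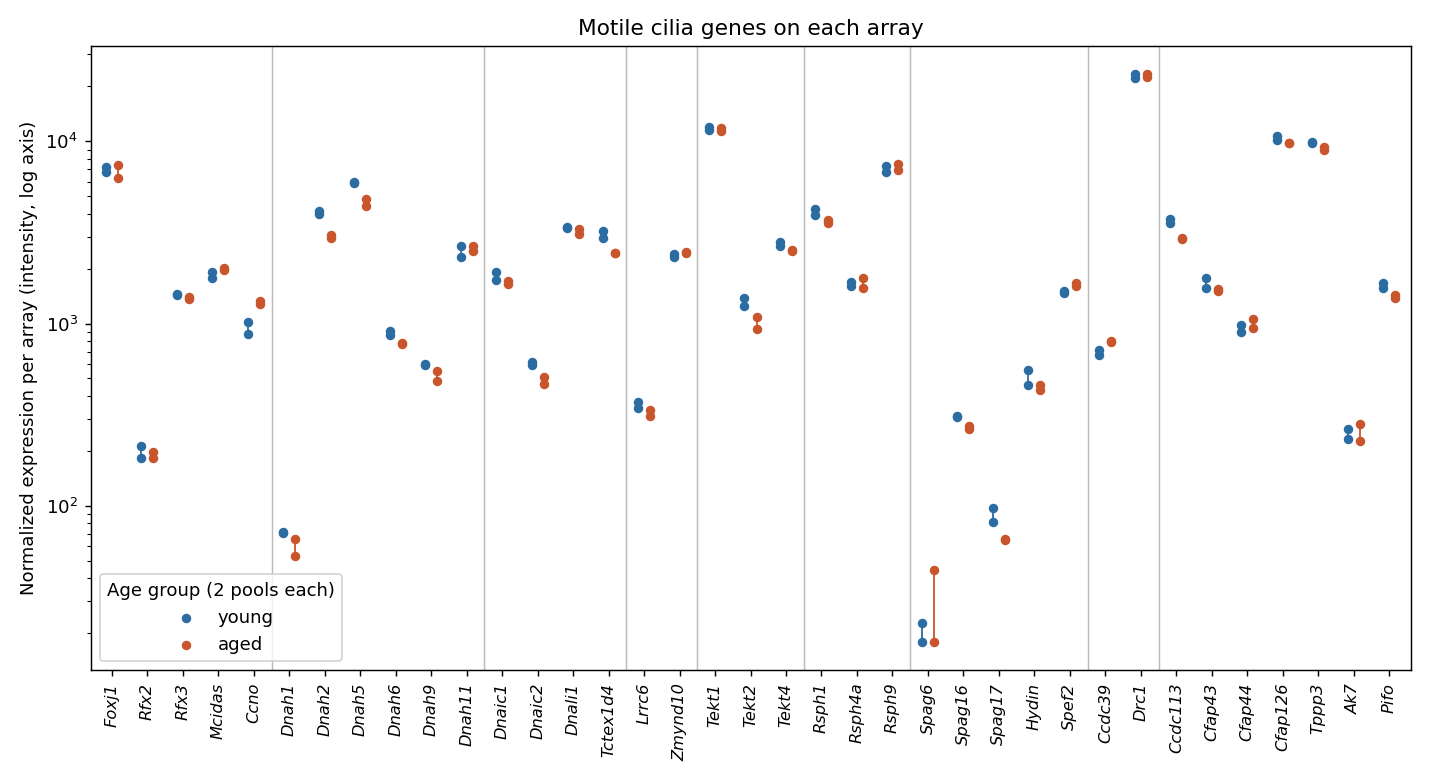
Expression level (y axis, normalized intensity, log scale) on each array for the 37 motile cilia genes (x axis, grouped by role between the grey lines); points are arrays, 2 of each age, joined by a line within an age. The points of *Dnah2*, *Dnah5*, *Tctex1d4* and *Ccdc113* separate the ages, and those of *Foxj1*, *Tekt1* and *Drc1* do not; levels are comparable within a gene only, and *Spag6* was not well above background.

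The tektins are filament proteins inside the doublet microtubules, and all 3 had lower means in aged mice (median -0.12). *Tekt2* had levels of 1375 and 1249 in young adult mice and 1089 and 939 in aged mice. The ages did not overlap (log2 fold change -0.37, 95% interval -0.74 to -0.01), and the FDR was 0.374. *Tekt1* had levels of 11931 and 11460 in young adult mice and 11331 and 11791 in aged mice, overlapping ranges with a log2 fold change of -0.02 (-0.26 to 0.22, FDR 0.943). *Tekt4* lay between them, at -0.12 (FDR 0.609). The difference between *Tekt2* and *Tekt1* was not tested.

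The median log2 fold change of the 3 radial spoke genes was 0.02. *Rsph4a*, a spoke head protein, had levels of 1606 and 1683 in young adult mice and 1561 and 1780 in aged mice. The aged values lay on both sides of the young adult values (log2 fold change 0.02, 95% interval -0.30 to 0.34, FDR 0.949). *Rsph9* likewise overlapped (0.04, FDR 0.890), whereas *Rsph1* was at -0.18 without overlap (FDR 0.497).

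Among the genes of the central pair, *Spag16* had levels of 310 and 308 in young adult mice and 262 and 275 in aged mice. The young adult values were close to each other, and the log2 fold change was -0.20 (-0.44 to 0.03, FDR 0.424). *Spag17* had the most negative value of the group after *Dnah2*, also -0.44 (-0.80 to -0.07, FDR 0.325), but its mean level was under 100, only 1 of its 2 probes was above background on all arrays, and its sign turned with the processed signal of the scanner software scaled to the 75th percentile (0.15). *Hydin*, a very large central pair protein, was at -0.18 and overlapped between the ages. *Spef2* was at 0.14 (FDR 0.548), with both aged values above both young adult values. *Spag6* was not well above background on any array, so no fold is given.

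*Ccdc39*, which with *Ccdc40* forms the ruler that spaces the spokes and inner arms along the doublets, had levels of 716 and 675 in young adult mice and 801 and 796 in aged mice. It was one of the few genes with both aged values above the young adult values (log2 fold change 0.20, 95% interval -0.04 to 0.44, FDR 0.439). *Drc1*, of the nexin-dynein regulatory complex, had levels of 23300 and 22246 in young adult mice and 22646 and 23299 in aged mice. The ages overlapped almost fully, with a log2 fold change of 0.01 (-0.22 to 0.25, FDR 0.956). *Ccdc113*, a coiled-coil protein of cilia, had levels of 3554 and 3722 in young adult mice and 2956 and 2909 in aged mice. Its ages were well apart (log2 fold change -0.31, 95% interval -0.54 to -0.08, FDR 0.305). The other cilium genes lay between -0.20 for *Pifo* and 0.09 for *Cfap44*, with *Cfap43* at -0.12, *Tppp3*, a tubulin-binding protein, at -0.11, *Cfap126* at -0.08 and *Ak7*, an adenylate kinase of the axoneme, at 0.03.

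Different probes of a gene pointed the same way. In all 17 genes with several probes, every probe had the same sign of change, including 4 probes of *Cfap44*, 4 of *Spef2*, 3 of *Dnah6* and 3 of *Spag16*. In *Dnah1*, *Dnah9*, *Mcidas* and *Spag17* only 1 of 2 probes was above background on all arrays, so the sign of the other says little. The probes of a gene also read the same arrays, so their agreement is not replication. The probes of *Dnaic2* were farthest apart, by 0.32 on the log2 scale, and those of *Rfx3* were within 0.01 of each other at -0.06.

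Arrays of the 2 ages did not overlap for 26 of the 37 genes, 21 lower and 5 higher in aged mice (of all genes tested 46% did not overlap, 21.8% lower and 24.2% higher). The share was larger among brighter genes, as 34 of the 37 are. Of the 25513 genes with a mean expression level of at least 100, 14747 did not overlap in either direction. Young adult array 1 and aged array 1 shared a slide, whereas the remaining arrays were on separate slides. On the shared slide 26 of the 37 genes were lower on the aged array (median log2 difference -0.11), against 23176 of all 45604 genes. Between the other arrays 24 were lower (median -0.05), and 28 genes had the same sign in both pairs. *Dnah2* differed by -0.44 in both pairs, *Dnah5* by -0.41 and -0.33, *Tekt2* by -0.34 and -0.41, and *Ccno* by 0.33 and 0.60. *Foxj1* (0.05 and -0.12), *Rfx2* (-0.23 and 0.10) and *Hydin* (-0.38 and 0.01) had opposite signs in the pairs.

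**Figure D3:**
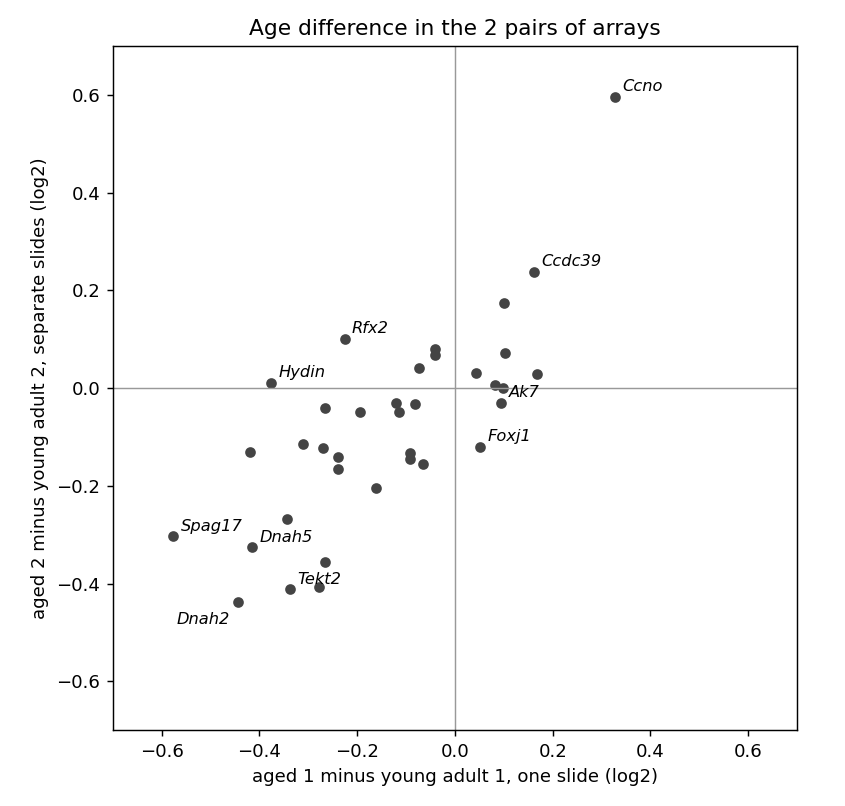
Log2 difference of aged array 1 from young adult array 1, which shared a slide (x axis), against that of aged array 2 from young adult array 2, on separate slides (y axis), 1 point for each of 36 motile cilia genes without *Spag6*. *Dnah2*, *Dnah5*, *Tekt2* and *Spag17* lie low in both pairs and *Ccno* high in both, and *Foxj1*, *Rfx2* and *Hydin* fall in quadrants of opposite sign.

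How many of the genes passed the criteria changed with the set of genes tested and with the normexp offset. The spread of each gene is estimated in part from all genes tested, and the FDR is adjusted over them. The cause of the changed calls was not tested. Where only the 25513 genes with a mean expression level of at least 100 were tested, 9 of the 34 motile cilia genes among them were called lower (26.5%, against 13% of all genes so tested) and 2 higher (5.88%, against 13%). The 9 were *Dnah2* (FDR 0.0337), *Dnah5* (0.0574), *Ccdc113* (0.0626), *Tctex1d4* (0.0676), *Dnaic2* (0.0899), *Tekt2* (0.117), *Spag16* (0.135), *Dnah6* (0.153) and *Pifo* (0.167). The 2 called higher were *Ccno* (FDR 0.0670) and *Ccdc39* (0.147). Where dim probes were left out, 11 of 36 genes were called lower (30.6%, against 12.6% of the genes so tested), the same 9 with *Dnah1* and *Spag17*, and 2 were called higher (5.56%, against 11.7%). With a normexp offset of 50, 6 of the 37 genes were called lower (16.2%, against 5.43% of all genes) and 1 higher (2.70%, against 4.62%). No test was made of these shares.

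**Figure D4:**
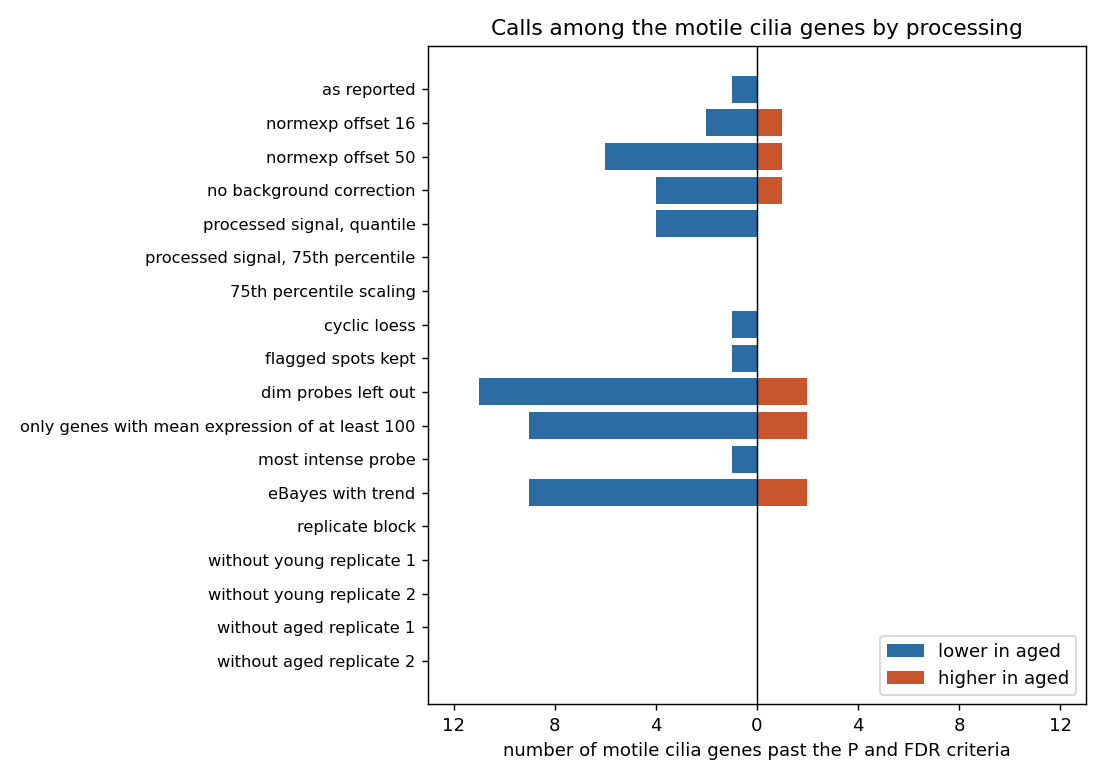
Number of motile cilia genes past the P and FDR criteria (x axis, lower in aged mice to the left, higher to the right) under each way of processing (y axis). The count runs from 0 lower when arrays are scaled to the 75th percentile to 11 lower when dim probes are left out. The share of all genes called lower also changed, being 1.81% with the median signal so scaled and 12.6% without dim probes.

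Related lists of cilium genes were read in the same fit, and in none of the 7 lists was any gene called in either direction. At P below 0.05 without the FDR, 5 ciliated cell markers, 1 further dynein chain, 1 spoke, nexin or central pair gene and 1 dynein assembly gene were lower and 1 dynein assembly gene was higher. The genes named from each list are those with the largest differences among genes with a mean level of at least 100. Among 20 regulators of multiciliated cells and basal body genes the median log2 fold change was -0.08, with 14 lower. *Foxn4*, a transcription factor of multiciliated cells, was at -0.27 (FDR 0.564) and *Ccdc78*, of the structures that multiply centrioles, at -0.20 (FDR 0.435). Among 19 genes for assembly and docking of dynein arms the median was 0.01, with *Ttc25*, an outer arm docking factor, at 0.35 (FDR 0.346) and *Dnaaf3*, an assembly factor, at -0.28 (FDR 0.340). These 19 genes thus lay evenly around 0 (9 lower).

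Of 20 further dynein chains 14 were measured, with a median of -0.02 and 8 lower. *Dnah10*, an inner arm heavy chain, had levels of 3208 and 3476 in young adult mice and 2381 and 2496 in aged mice. Its log2 fold change of -0.45 (-0.72 to -0.19) was close to that of *Dnah2*, and its FDR of 0.257 lay just outside the criterion. *Dnah8*, a heavy chain known from sperm tails, was at -0.34 (FDR 0.518). Of 42 other genes of radial spokes, nexin links, the central pair and cilia and flagella, 40 were measured, with a median of -0.04 and 22 lower. At a level of at least 100, *Cfap77* was at 0.41 (FDR 0.473) and *Tcte1*, of the nexin link, at -0.29 (FDR 0.664). The lists also held dimmer genes with larger values, which were *Gmnc* among the regulators (-0.44, FDR 0.476), *Cfap73* in this last list (-0.41, FDR 0.677) and *Dnaaf6* among the assembly factors, which was not above background on any array.

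Among 24 measured of 25 other marker genes of ciliated cells the median was -0.10, and 20 were lower. *Tmem212* had levels of 14386 and 14729 in young adult mice and 10787 and 11467 in aged mice (log2 fold change -0.39, FDR 0.267). *Tspan1*, a tetraspanin, was at -0.36 (FDR 0.274). Genes of cilium transport and the cilium base, which immotile cilia also use, had medians above 0. So had the genes for assembly and docking of dynein arms (0.01) and all genes tested (0.01). The 31 intraflagellar transport genes had a median of 0.03, with 12 lower and, at a level of at least 100, the largest differences at *Ift20* (-0.23, FDR 0.418) and *Ttc21b* (-0.20, FDR 0.417). The 25 genes of the BBSome and the transition zone had a median of 0.11, with 8 lower, and the largest differences at *Tctn3* (0.24, FDR 0.421) and *Mks1* (0.22, FDR 0.386), both of the transition zone. The differences between lists were not tested.

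**Figure D5:**
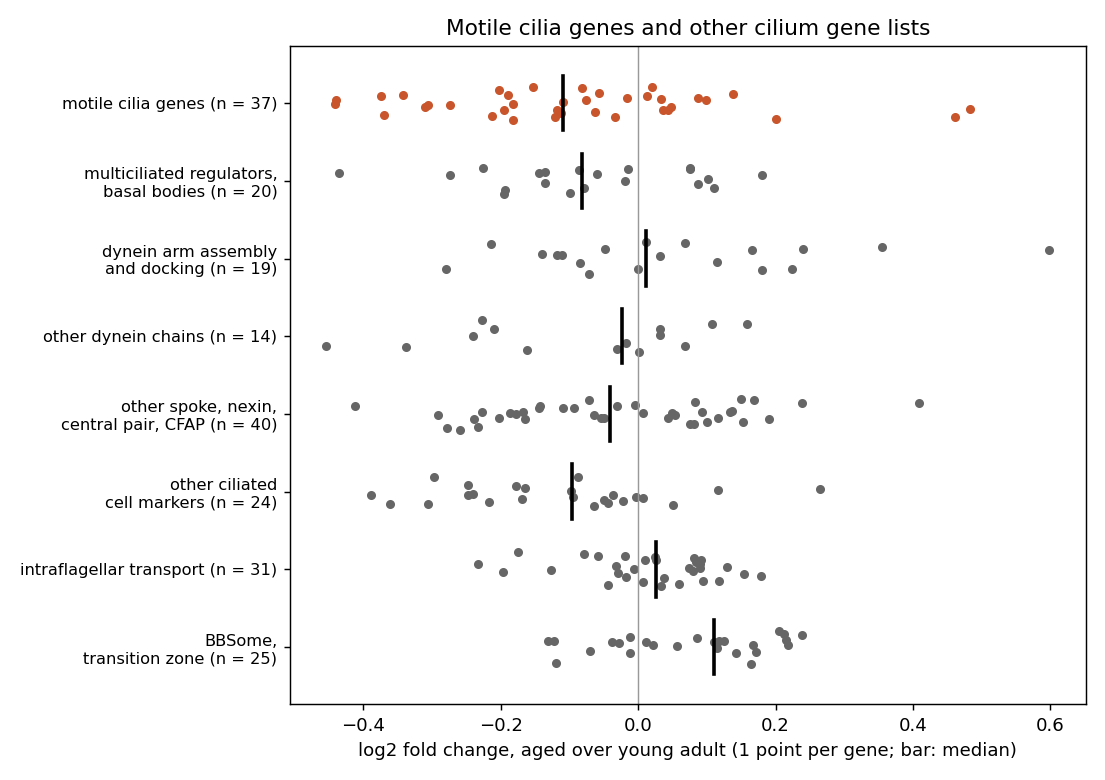
Log2 fold change (x axis, aged over young adult) of each measured gene (points) in the motile cilia group and 7 other cilium gene lists (y axis), with the median of each list as a bar. The medians run from -0.11 for the motile cilia genes to 0.11 for the BBSome and transition zone; *Spag6*, not above background, is among the points of the first list.

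Markers of other cell types moved with age in the same RNA. In the sums of levels given here the brightest probes weigh most. All 14 mature ORN markers had higher means in aged mice and 2 were called higher, and their summed level was 694005 to 708743 in young adult and 807989 to 815007 in aged mice. The summed level of 9 immature ORN markers was 77720 to 79051 in young adult and 63197 to 63963 in aged mice (1 called lower), and that of 7 fibroblast markers was 223796 to 248502 in young adult and 116549 to 124535 in aged mice (5 called lower). Of 10 markers of basal and progenitor cells 4 were called lower (*Krt5*, *Kit*, *Mki67* and *Top2a*), with a sum of 37282 to 37303 in young adult and 29975 to 30602 in aged mice. Of 8 markers of sustentacular cells, the supporting cells of the olfactory epithelium, 1 was called higher (*Cyp1a2*), with a sum of 692137 to 707516 in young adult and 676803 to 685131 in aged mice. That sum was lower in aged mice, whereas 5 of the 8 markers were higher (median log2 fold change 0.13). Of 10 markers of secretory cells of the respiratory epithelium, the neighbours of multiciliated cells, 2 were called higher (*Scgb3a1* and *Muc5b*) and 1 lower (*Muc5ac*), with a sum of 803797 to 803970 in young adult and 858392 to 880836 in aged mice. The summed level of the 37 motile cilia genes was 119437 to 120319 in young adult and 113018 to 114386 in aged mice. The part of these other cell types in the levels of the motile cilia genes was not tested. Among tissues other than the nose, none of 8 testis markers was above background on all arrays, whereas 7 of 8 markers of choroid plexus and ependyma, whose cells also bear motile cilia, were. The other one, *Ttr*, the transthyretin that defines choroid plexus, was called lower and was above background on the young adult arrays only. The summed level of these 8 markers was 50392 to 53279 in young adult and 55627 to 55960 in aged mice. This sum was higher in aged mice, whereas 5 of the 8 markers were lower (median log2 fold change -0.09). All 8 brain markers were above background on all arrays, 1 of them called lower (*Mbp*, of myelin), with a sum of 24298 to 26338 in young adult and 29265 to 30655 in aged mice. The part of these tissues was not tested either.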

How the data were processed

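RNA of 4 samples was measured on one-color Agilent 8x60K arrays. The authors scanned the arrays and deposited, for each of 62976 spots, a median intensity, a median local background intensity, a processed intensity and quality flags (Feature Extraction 11.0.1.1), with no normalization between arrays. The deposited series table equalled the processed intensity. Per array, 63.1 to 76.8% of the non-control spots were well above background and none was saturated.

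From these, normexp (offset 0) on the median intensities, log2 values, averaging of the spots of a probe, quantile normalization and averaging of the probes of a gene were computed with limma 3.58.1 in R 4.3.3. Control spots and 88 to 118 flagged spots per array were left out. Of 56605 probes, 32994 were named through RefSeq (GRCm38.p6). The ages were compared with lmFit and eBayes over all 45604 genes, without covariates, with Benjamini-Hochberg adjustment. The procedure was also run on simulated data. These had independent noise for each gene and no slide effects or shared mice, so that run cannot vouch for the calls made here. No background method or offset is given in the sources used here.

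The motile cilia genes, the other lists, the tests and the alternatives were chosen with earlier results of these data known, and the sex genes were added later. Values for every array are given for the genes past the criteria, the 10 largest and 3 smallest differences at a level of at least 100, and the 5 regulators. In other lists, none of whose genes was called, the 2 largest differences at a level of at least 100 were named. *Dnah11*, *Dnah10* and *Tmem212* were given by array, and *Gmnc*, *Cfap73* and *Dnaaf6* named, after their values were seen.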

Additional observations from a re-analysis of the deposited data

How the results depend on the processing

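The median log2 fold change of the motile cilia genes was negative under every alternative, and was -0.12 to -0.052 with 1 array left out (the latter without young adult array 1). The number called lower was 1, with none higher (2.33% and 1.65% of all genes). Under the alternatives it is given with the shares of all genes called lower and higher in brackets. It was 2 with 1 higher at a normexp offset of 16 (3.71% and 2.85%), and 6 with 1 higher at an offset of 50 (5.43% and 4.62%). It was 4 with 1 higher without background correction (4.91% and 3.92%), and 4 with the processed signal quantile normalized (5.14% and 4.45%). Without dim probes it was 11 with 2 higher (12.6% and 11.7%). Among genes with a level of at least 100 it was 9 with 2 higher (13% and 13%). With an intensity trend in eBayes it was also 9 with 2 higher (7.71% and 7.92%). At an FDR below 0.5 it was 7 with 1 higher (7.08% and 6.05%). It was 0 with the processed signal or the median signal scaled to the 75th percentile, at an FDR below 0.1, and with any array left out, where no gene of all 45604 was called. With the replicate number as a block no gene of all 45604 was called either (*Dnah2* at an FDR of 0.433), so neither setting bears on these genes in particular. The numbers do not pair the arrays by any source, and the deviations of same-numbered arrays correlated at -0.08.

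Among the genes given by array, signs turned only in those with differences near 0. *Tekt1* was at 0.0031 with the processed signal quantile normalized, 0.024 with it scaled to the 75th percentile, and -0.046 to 0.012 with 1 array left out. *Foxj1* was at 0.0086 with the processed signal scaled to the 75th percentile, 0.05 on the shared slide and -0.16 to 0.089 with 1 array left out. *Drc1* was at -0.0035 with cyclic loess, -0.04 on the shared slide and -0.021 to 0.046 with 1 array left out. With 1 array left out *Rsph4a* ranged from -0.075 to 0.11 and *Rfx2* from -0.17 to 0.048. *Ak7*, *Dnah11*, *Rsph9*, *Zmynd10*, *Spag17* and *Spag6* also turned under 1 or more alternatives.

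In the other lists, where none was called, the calls were as follows. They are counts among at most 20, 19, 14, 40, 24, 31 and 25 measured genes, in the order of the lists below. The shares of all genes called are given above for most settings. They were 3.02% lower and 2.09% higher with cyclic loess, and 3.09% and 2.20% with the most intense probe. With the processed signal scaled to the 75th percentile they were 1.89% and 1.41%. No count was tested against these shares, and none is read as a result about a list. Regulators and basal bodies had 1 higher and 2 lower without dim probes, and 1 lower among genes with a level of at least 100 or with the trend. Dynein assembly had 1 higher and 1 lower at an offset of 50 and at an FDR below 0.5, 1 lower without background correction, 2 higher and 2 lower without dim probes and at a level of at least 100, and 3 higher and 1 lower with the trend. Other dynein chains had 1 lower at an offset of 16, without background correction, with the processed signal quantile normalized, with cyclic loess, with the most intense probe and at an FDR below 0.5, 2 lower at an offset of 50 and without dim probes, and 1 higher and 2 lower at a level of at least 100 and with the trend. Spoke, nexin and central pair genes had 1 lower at an offset of 50, without background correction, with the processed signal quantile normalized and at an FDR below 0.5, 1 higher and 5 lower without dim probes, 2 higher and 5 lower at a level of at least 100, and 4 higher and 6 lower with the trend. Ciliated cell markers had 2 lower at an offset of 16, 5 at an offset of 50, 4 without background correction, 5 with the processed signal quantile normalized, 1 with cyclic loess, 8 without dim probes and 5 at an FDR below 0.5, and 1 higher with 8 lower at a level of at least 100 or 10 lower with the trend. Intraflagellar transport had 2 lower without dim probes and at a level of at least 100, and 1 higher and 2 lower with the trend. The BBSome and transition zone had 1 higher with either form of the processed signal, 3 higher without dim probes and at a level of at least 100, and 6 higher and 1 lower with the trend. The cause of these changes was not tested. Slide as a random block was not run, because its correlation could not be estimated for any gene. Without dim probes *Spag6* gave no value.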
